A study of Mus musculus with 6 samples.

Results

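The fibroblast growth factor (FGF) genes described here were the 18 secreted ligands, the 4 intracellular FGF homologous factors, the 5 receptors, the 2 receptor adaptors, and the 8 feedback inhibitors and 3 ETS transcription factors that FGF signalling is known to induce. They were chosen by gene symbol, with earlier results of these data known, and numbered 40 of the 55416 genes in the count table. Ganglionic eminences, the ventral swellings of the embryonic forebrain that give rise to striatal neurons and cortical interneurons, were taken at E13.5 from Dlx1/Dlx2 double knockout mice (n = 3) and from wild-type littermates (n = 3). Dlx1 and Dlx2 are neighbouring genes that encode homeodomain regulators of ventral forebrain development, and the study's title names an axis of DLX factors and Notch in neural cell fate. Total RNA was sequenced after depletion of ribosomal RNA. The labels do not describe the knockout alleles, or whether a library came from 1 embryo or from a pool, so the p-values measure only the spread between these samples, which may be technical.

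Secreted FGFs bind heparan sulfate and receptor tyrosine kinases at the cell surface, and the adaptor Frs2 couples the receptors to the RAS and MAP kinase cascade. That cascade induces its own inhibitors, the Sprouty and Spred proteins, the phosphatase Dusp6 and the membrane protein Il17rd, together with the ETS factors Etv1, Etv4 and Etv5, and these genes are widely used as readouts of signalling. In the early forebrain, FGFs from the rostral midline pattern the telencephalon, and FGF receptors help to maintain its neural progenitors. The homologous factors Fgf11 to Fgf14 are not secreted, and are known as intracellular partners of voltage-gated sodium channels in neurons.

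Promoter sequences were examined because the homologous factors were all lower in the double knockout, Fgf11 past the threshold of the test, and because DLX proteins bind homeodomain motifs rich in A and T. RefSeq promoters on GRCm38.p6 were found for 31 of the 40 members, giving 40 promoter windows of 250 bases upstream of a start site. No entry was found for Fgf1, Fgf8, Fgf17, Fgf16, Fgf20, Fgf15, Fgfr1, Spry4 and Etv4. Exact matches on either strand were counted for TAATTA, then for the related homeodomain motif TAATTG and for the ETS motif CCGGAA. The Fgf11 window (chr11:69802281-69802530, minus strand) is shown as that of the one member called, and it holds none of the 3 motifs. One Etv1 window (chr12:38783461-38783710, plus strand) is shown for its TAATTG, and one Fgf12 window (chr16:28446076-28446325, minus strand) for its CCGGAA. Each is written 5′ to 3′ in its gene's direction, with the motif in capitals.
Fgf11: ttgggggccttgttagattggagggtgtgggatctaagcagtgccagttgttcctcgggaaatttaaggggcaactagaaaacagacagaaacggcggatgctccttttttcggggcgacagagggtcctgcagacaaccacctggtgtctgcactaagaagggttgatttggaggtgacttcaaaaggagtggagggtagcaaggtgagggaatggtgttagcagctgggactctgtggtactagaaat
Etv1: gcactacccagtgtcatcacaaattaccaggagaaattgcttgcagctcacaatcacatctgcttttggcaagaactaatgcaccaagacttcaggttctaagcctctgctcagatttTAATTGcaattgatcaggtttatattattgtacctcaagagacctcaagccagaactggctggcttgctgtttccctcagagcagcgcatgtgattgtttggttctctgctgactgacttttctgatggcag
Fgf12: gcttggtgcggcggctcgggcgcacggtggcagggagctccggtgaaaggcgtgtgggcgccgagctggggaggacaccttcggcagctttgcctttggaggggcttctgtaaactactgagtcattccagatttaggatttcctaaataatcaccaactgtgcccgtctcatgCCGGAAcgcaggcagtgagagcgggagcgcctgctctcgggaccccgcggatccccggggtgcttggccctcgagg
TAATTA was in 0 of the 40 member windows and in 4.84% of all 32851 windows. TAATTG was in 2 member windows, of Etv1 and Fgf7, and in 7.17% of all. CCGGAA was in 5 member windows, of Fgf12, Fgf5, Fgfr4, Fgfrl1 and Frs2, and in 12% of all. A match describes these letters only, and binding was not measured.

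The libraries held 56618090 to 70114173 counts, and edgeR's quasi-likelihood test was run on 23628 genes. Dlx2 fell from between 16510 and 20100 counts in wild type to between 436 and 762 in the double knockout, and Dlx1 from between 25430 and 28650 to between 4373 and 6523. All 12 ganglionic eminence markers were detected, of which edgeR called 6 lower and 3 higher. Their summed level was 1742 to 1804 CPM (read count scaled to library size, with TMM normalisation) in wild type and 1324 to 1559 CPM in the double knockout. Oligodendrocyte precursor markers summed to 78.43 to 79.97 and 146.2 to 189.4 CPM (6 of 8 called higher). Cortical excitatory markers summed to 1648 to 1700 and 1171 to 1296 CPM (2 of 8 called lower, Bcl11b and Neurod2). All 8 were fitted lower, and in 7 (87.5%) the double knockout lay below wild type without overlap, beside 10.2% of all genes. Bcl11b, which striatal neurons also express, was the largest part of that cortical sum. Its wild-type mean was 779.4 CPM and its double knockout mean 536.9 CPM, so the sum does not measure cortical cells alone. The part of these shifts in the FGF values was not tested. Double knockout replicate 3 stood apart from its group: the chi-square statistic per gene was 29.74 and 36.37 against the other double knockout libraries, 13.11 between those, and 20.38 to 21.67 among wild-type libraries. It held 114.8 CPM of Nr2f2, a transcription factor of the caudal eminence, against 338.1 and 350.8 in the other double knockout libraries. Wild-type replicate 1 held 26.3 CPM of Ttr, a choroid plexus gene, against at most 0.156 elsewhere. Y-linked genes were expressed in wild-type replicate 1 and double knockout replicates 2 and 3.

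Of the 40 members, 34 passed the filter on low counts, and edgeR's quasi-likelihood test called 1 lower and 0 higher at an adjusted p under 0.05. The member called was Fgf11. That is 2.94% of the members tested, beside 2.68% of all genes tested, so the share called was close to the background. At an unadjusted p under 0.05 there were 15 members, 8 higher and 7 lower, or 44.1%, where all genes gave 13.3%. DESeq2 called 2 members higher and 2 lower, and limma-voom 0 higher and 1 lower. Over all genes DESeq2 called 592 higher and 570 lower, and limma-voom 301 higher and 314 lower. Values of the 2 genotypes did not overlap in 14 members, which is 41.2% of those tested beside 19.5% of all genes. In 7 the double knockout was higher (9.3% of all genes) and in 7 it was lower (10.2% of all genes). The members' median log2 fold change was 0.09, beside -0.002 over all genes, and their median absolute change was 0.27 beside 0.13. Among the 28 members averaging 1 CPM or more, 13 did not overlap (46.4%), beside 22.4% of all genes at that level, of which 3.57% were called.

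**Figure D1:**
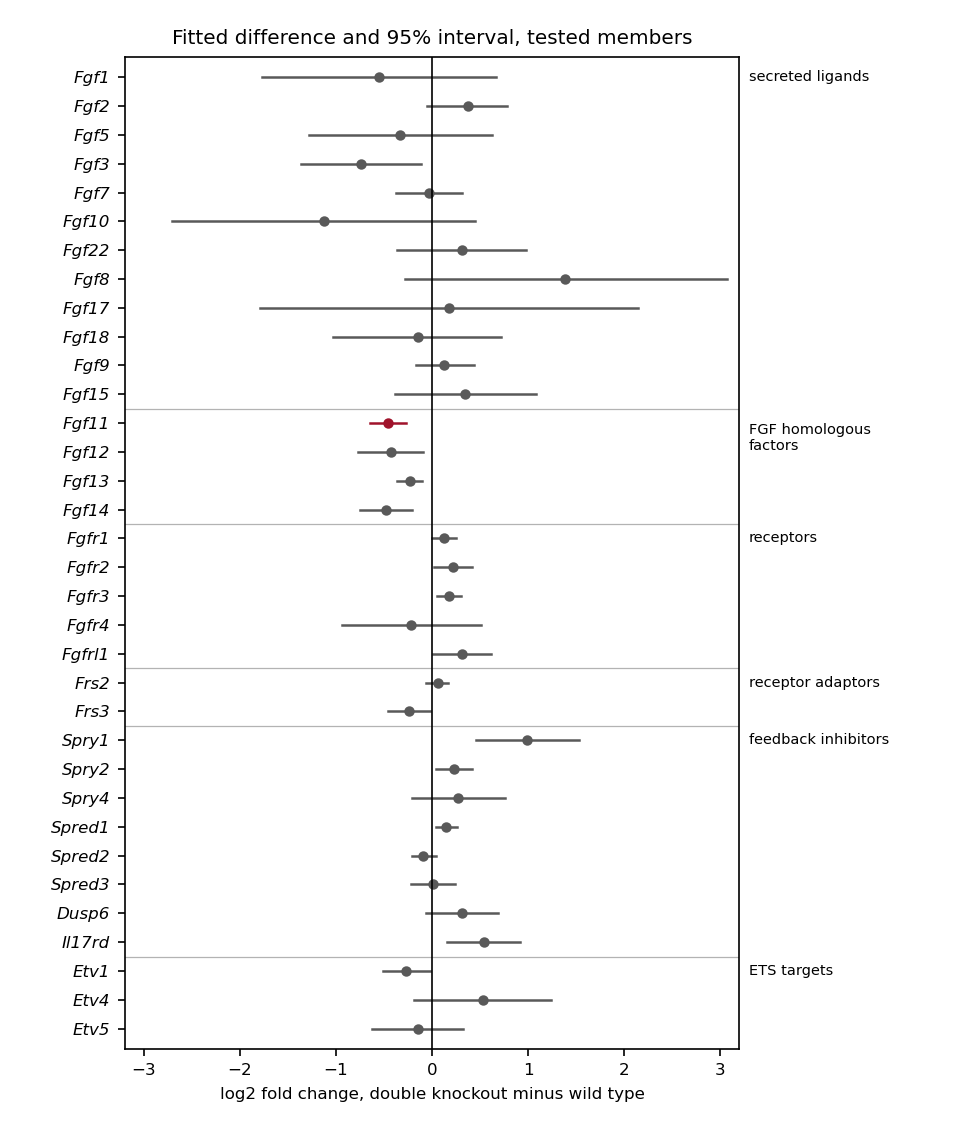
Fitted log2 fold change (double knockout minus wild type, x axis) and 95% interval for each of the 34 tested members, grouped by role, with 3 libraries per genotype. Fgf11, in red at -0.46, is the only member past the threshold, and the interval of Fgf17 is among the widest, from -1.79 to 2.15.

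The intracellular homologous factors were the most uniform group. All 4 were lower in every double knockout library than in any wild-type library, as were 10.2% of all genes. Their median log2 fold change was -0.45, and 1 of the 4 passed the test, where 2.68% of all genes did. Fgf11 (ENSMUSG00000042826) was at 26.2, 26.7 and 25 CPM in the wild-type libraries and at 19.5, 16.9 and 20 CPM in the double knockout. The lowest wild-type library thus lay well above the highest double knockout library. Means were 25.9 ± 0.877 and 18.8 ± 1.66 CPM (SD, n = 3 each). Its log2 fold change was -0.46 (SE 0.0824, 95% interval -0.65 to -0.27), with an edgeR adjusted p of 0.0233.

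Fgf14 differed by a similar amount, with more spread. It was at 32.6, 24.5 and 29.1 CPM in wild type and 23.4, 19.1 and 19.3 CPM in the double knockout, a log2 difference of -0.48 (SE 0.12, edgeR adjusted p = 0.09). Fgf12, the partner of cardiac and neuronal sodium channels, was at 20.5, 18.4 and 17.3 CPM and then 16.3, 14.8 and 10.7 CPM, a log2 difference of -0.43 (edgeR adjusted p = 0.238). Fgf13 had the highest level of the group per exon length, 20.1 RPKM in wild type, and was at 86.3, 77.1 and 79.5 CPM in wild type and 72.1, 67.3 and 68.1 CPM in the double knockout. Its log2 difference was the smallest of the group, -0.23 (SE 0.0572, edgeR adjusted p = 0.091).

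The summed level of 12 neuron markers, among them Tubb3 and Dcx, was 7696 to 8533 CPM in wild type and 6356 to 7495 CPM in the double knockout. Of these markers 2 were called lower, Snap25 at a log2 fold change of -0.36 and Elavl3 at -0.26, and the other 10 were not called. In 6 of the 12 (50%) the double knockout lay below wild type without overlap, beside 10.2% of all genes. Of the 12, 11 were fitted lower, and none was at 0. The part of neuron content in the values of Fgf11 to Fgf14 was not tested, and in bulk tissue fewer cells of a type and less RNA per cell cannot be told apart. The call of Fgf11 was lost with Y-linked expression as a covariate (edgeR adjusted p = 0.0716). It was also lost without wild-type replicate 1 (0.1), 2 (0.0969) or 3 (0.0633) and without double knockout replicate 1 (0.0615) or 2 (0.0725), while its log2 fold change stayed between -0.50 and -0.39 over all 14 alternatives.

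**Figure D2:**
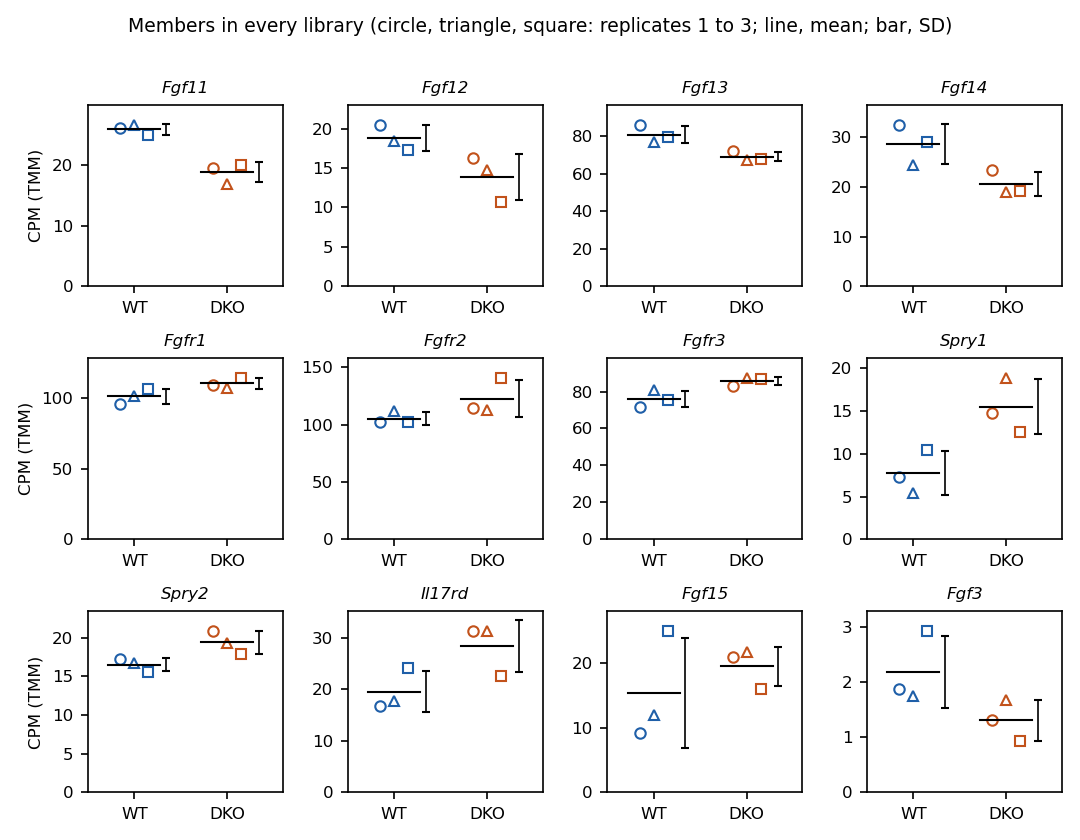
Normalised read count in CPM (y axis, from 0) of 12 members in each library of wild type (WT, blue) and double knockout (DKO, orange), with the group mean as a line and the SD as a bar. The double knockout libraries of Fgf11 to Fgf14 all sit under the wild-type libraries, whereas those of Fgf15 lie within the wild-type range of 9.22 to 25.

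The 3 main receptors were expressed at closely similar levels. Per exon length, wild-type means were 10.3 RPKM (CPM divided by exon length) for Fgfr1, 10.2 for Fgfr2 and 10.6 for Fgfr3. Their ranges over libraries overlapped, and so did that of the docking protein Frs2 at 10.1 RPKM, so these 4 have no order beyond their spread. Fgfr4 stood far below at 0.176 RPKM. Fgfrl1, a receptor without a kinase domain, was at 5.64 RPKM.

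In each of the 3 main receptors every double knockout library was above every wild-type library, as in 9.3% of all genes. The differences were small and none passed the test. Fgfr3, a receptor of ventricular zone progenitors, was at 71.6, 80.6 and 75.5 CPM in wild type and 83.2, 87.5 and 86.7 CPM in the double knockout, a log2 difference of 0.18 (95% interval 0.05 to 0.30, edgeR adjusted p = 0.179). Fgfr2 was at 102.0, 111.5 and 102.5 CPM and then 114.5, 112.6 and 140.9 CPM, a log2 difference of 0.22 (edgeR adjusted p = 0.315). Double knockout replicate 3 was the highest, and the other 2 double knockout libraries were just over the highest wild-type value. Fgfr1 was at 96, 101.3 and 106.6 CPM and then 109.7, 107.2 and 114.6 CPM, a log2 difference of 0.13 (edgeR adjusted p = 0.359).

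Fgfrl1 overlapped between genotypes, at 14.7, 15 and 17.4 CPM in wild type and 17.9, 17 and 23.5 CPM in the double knockout (log2 difference 0.31, edgeR adjusted p = 0.351). Fgfr4 was at 0.347 to 0.785 CPM over all libraries (log2 difference -0.22, edgeR adjusted p = 0.86). Of the receptors 4 of 5 had an unadjusted p under 0.05, all of them higher, beside 13.3% of all genes in either direction. By edgeR's adjusted p 0 of 5 were called. Progenitor markers were higher in the same libraries: the summed level of 14 of them was 3853 to 4220 CPM in wild type and 4777 to 5364 CPM in the double knockout. Of these, Notch1, Hes5 and Ptprz1 were called higher, 13 of 14 were fitted higher, and none was at 0. Their part in the receptor values was not tested.

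The adaptors showed no common direction. Frs2, which carries the signal from receptor to RAS, was at 89.5, 84.4 and 92.2 CPM in wild type and 90.5, 92.7 and 93.3 CPM in the double knockout, and its log2 difference had a 95% interval of -0.06 to 0.17 (edgeR adjusted p = 0.728). Frs3, the related adaptor, was at 12.6, 10.8 and 12.7 CPM and then 10.4, 10.5 and 9.57 CPM, without overlap and with a log2 difference of -0.24 (edgeR adjusted p = 0.324).

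**Figure D3:**
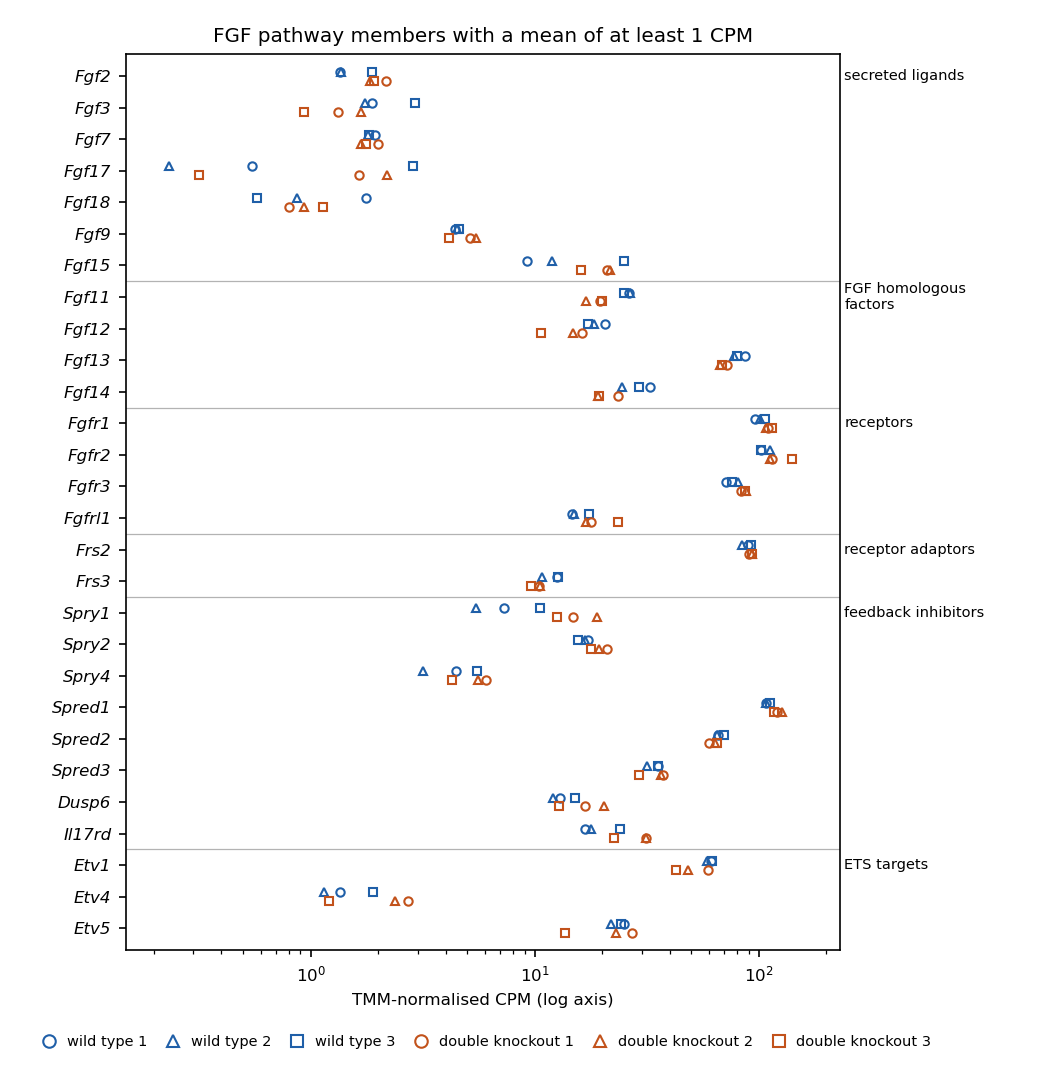
Normalised read count in CPM (x axis, log scale) of the 28 members averaging 1 CPM or more, for each library of wild type (blue) and double knockout (orange), with symbols for replicate numbers. Within a genotype Fgf17 spreads from 0.233 to 2.85 CPM in wild type, while Spred1 stays within 107.8 and 111.7 CPM.

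The feedback inhibitors were read as the output of the pathway, and none of the 8 passed edgeR's test. At an unadjusted p under 0.05 there were 4, all higher, beside 13.3% of all genes in either direction. By DESeq2 Spry1 and Il17rd were called higher. The median log2 fold change of the 8 was 0.25. Progenitor and oligodendrocyte precursor markers were also higher in summed level in the double knockout, at 4777 to 5364 and 146.2 to 189.4 CPM against 3853 to 4220 and 78.43 to 79.97 CPM, and their part in the feedback genes was not tested. Spry1, a Sprouty inhibitor of receptor tyrosine kinase signalling, had the largest difference. It was at 7.32, 5.46 and 10.5 CPM in wild type and 14.8, 18.9 and 12.6 CPM in the double knockout. The groups did not overlap, and the means of 7.77 ± 2.56 and 15.5 ± 3.22 CPM (SD, n = 3 each) differed 1.99-fold. The log2 fold change was 0.99 (SE 0.235, 95% interval 0.46 to 1.53) with an edgeR adjusted p of 0.0733. Without wild-type replicate 3 it was 1.28 (edgeR adjusted p = 0.0278), without double knockout replicate 3 it was 1.13 (0.0433), and DESeq2 called it at an adjusted p of 0.000132. Over all 14 alternatives the log2 fold change was 0.79 to 1.28 and the adjusted p 0.000132 to 0.25, the highest without wild-type replicate 1.

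Il17rd, a transmembrane inhibitor of FGF signalling also known as Sef, was at 16.7, 17.8 and 24 CPM in wild type and 31.2, 31.3 and 22.6 CPM in the double knockout. Double knockout replicate 3 alone overlapped wild type, lying below wild-type replicate 3. The log2 difference was 0.54 (SE 0.166, edgeR adjusted p = 0.176), and 0.69 without double knockout replicate 3 (edgeR adjusted p = 0.0405). Over all 14 alternatives it was 0.44 to 0.72, with adjusted p from 0.0157 by DESeq2 to 0.47 without wild-type replicate 1. Dusp6, the phosphatase of ERK, also was highest of its group in wild-type replicate 3 and lowest of its group in double knockout replicate 3. It was at 13, 12 and 15.1 CPM and then 16.8, 20.3 and 12.8 CPM (log2 difference 0.31, edgeR adjusted p = 0.477). Spry4 was at 4.47, 3.17 and 5.5 CPM and then 6.05, 5.58 and 4.27 CPM (log2 difference 0.27, edgeR adjusted p = 0.682).

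The inhibitors with the highest levels per exon length, Spred1 at 16.1 and Spred2 at 14.5 RPKM in wild type and then Spry2 at 7.92, varied little between libraries. Spry2 was at 17.3, 16.8 and 15.6 CPM in wild type and 20.9, 19.3 and 17.9 CPM in the double knockout (log2 difference 0.23, edgeR adjusted p = 0.275). Spred1, a membrane inhibitor of RAS activation, was at 108.0, 107.8 and 111.7 CPM and then 121.0, 126.4 and 116.4 CPM (log2 difference 0.15, edgeR adjusted p = 0.188). Both were without overlap. Its relative Spred2 lay the other way, also without overlap but narrowly. It was at 65.5, 65.3 and 69.5 CPM and then 59.7, 63.6 and 65.2 CPM (log2 difference -0.09, edgeR adjusted p = 0.579). Spred3 was at 35.4, 31.6 and 35.5 CPM and then 37.3, 36.6 and 29.2 CPM, a log2 difference of 0.01 (95% interval -0.22 to 0.24, edgeR adjusted p = 0.99).

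The 3 ETS factors were fitted in both directions, and none passed the test. Etv1, which also marks some forebrain neurons, was at 60.9, 58.7 and 61.6 CPM in wild type and 59.5, 48.3 and 42.8 CPM in the double knockout, a log2 difference of -0.27 (SE 0.107, edgeR adjusted p = 0.321). Without double knockout replicate 1, the library nearest to wild type, it was -0.41 (edgeR adjusted p = 0.0424), and without double knockout replicate 3 it was -0.16 (0.465). Etv5 was at 25, 21.8 and 24.2 CPM and then 27.1, 23 and 13.7 CPM, a log2 difference of -0.15 (edgeR adjusted p = 0.848) that became 0.09 without double knockout replicate 3. Etv4 was low, at 1.35, 1.15 and 1.89 CPM and then 2.73, 2.39 and 1.21 CPM (log2 difference 0.53, edgeR adjusted p = 0.561). Double knockout replicate 3 was the lowest of its group in each of the 3.

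None of the 18 secreted ligands passed edgeR's test, and only Fgf3 had an unadjusted p under 0.05. By DESeq2 and limma-voom none was called either. Of the 18, 12 could be tested. Per exon length Fgf15 was the most abundant, at 5.03 RPKM in wild type (3.01 to 8.19 over libraries), and all the others were under 1 RPKM. Fgf15, the mouse counterpart of human FGF19, is expressed by neural progenitors of the embryonic brain. It was at 9.22, 11.9 and 25 CPM in wild type and 20.9, 21.7 and 16 CPM in the double knockout. The highest value of all 6 was a wild-type library, and the log2 difference was 0.34 (SE 0.323, 95% interval -0.39 to 1.08, edgeR adjusted p = 0.75). Without wild-type replicate 3 it was 0.89 (edgeR adjusted p = 0.0547), without wild-type replicate 2 it was 0.19 (0.915), and without wild-type replicate 1 it was 0.08 and not called.

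The rostral ligands of the FGF8 subfamily were scarce. Fgf8, the main ligand of the rostral patterning centre, had 14, 0 and 27 reads in wild type and 35, 37 and 39 in the double knockout. In CPM this was 0.239, 0 and 0.421 and then 0.539, 0.642 and 0.562, without overlap, and the log2 difference of 1.39 had a 95% interval from -0.28 to 3.07 (edgeR adjusted p = 0.485). Of the tested members Fgf17 had the largest SE of the log2 difference, 0.863. It was at 0.546, 0.233 and 2.85 CPM in wild type and 1.65, 2.2 and 0.317 CPM in the double knockout. Its log2 difference of 0.18 (edgeR adjusted p = 0.962) became 1.83 without wild-type replicate 3 and -0.31 without wild-type replicate 2 or without double knockout replicate 2. Fgf18 was at 1.77, 0.871 and 0.577 CPM and then 0.801, 0.937 and 1.14 CPM (log2 difference -0.15, edgeR adjusted p = 0.921).

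Of the FGF7 subfamily, Fgf3 was lower in every double knockout library. It was at 1.88, 1.74 and 2.93 CPM in wild type and 1.32, 1.68 and 0.937 CPM in the double knockout, a log2 difference of -0.74 (SE 0.274, edgeR adjusted p = 0.276). The RefSeq promoters of Fgf3 and Fgf4 lie near each other on chromosome 7, and the values of these genes differed. Fgf4 had no read in any library, which allows up to 0.0432 to 0.052 CPM. Fgf7 was at 1.93, 1.8 and 1.82 CPM and then 1.99, 1.67 and 1.77 CPM, with a log2 difference of -0.03 (95% interval -0.38 to 0.31, edgeR adjusted p = 0.959). Fgf10 was at 0.124 to 1.31 CPM over the 6 libraries and Fgf22 at 0.655 to 1.34 CPM.

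Fgf9, known as a glia-activating factor, was at 0.964 RPKM in wild type, a level within the wild-type ranges of Fgf3, Fgf17 and Fgf18, so these 4 have no order beyond their spread. It was at 4.4, 4.48 and 4.57 CPM in wild type and 5.16, 5.48 and 4.14 CPM in the double knockout (log2 difference 0.13, edgeR adjusted p = 0.764). Fgf2, the basic FGF of neural stem cell culture, was at 1.35, 1.37 and 1.87 CPM and then 2.16, 1.84 and 1.92 CPM (log2 difference 0.37, edgeR adjusted p = 0.457). Fgf1 and Fgf5 stayed at or under 0.607 CPM. The 6 members left untested were Fgf4, Fgf6, Fgf16, Fgf20, Fgf21 and Fgf23, with at most 15 reads in a library, so a difference in them was not detectable at this depth. These floors cover counting error only.

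Counts of 11 tested members are uncertain, since their exons overlap another gene in GENCODE M21 and the strand setting of the counting is not known. On the opposite strand lie Nudt6 for Fgf2, Rnf126 for Fgf22, Gm26793 and Gm39119 for Fgf15, G630022F23Rik for Fgfr3, Gm42922 for Spry1, Ggn for Spred3 and Frs3os for Frs3, and other predicted transcripts for Fgf10, Fgf14 and Fgfr1. On the same strand, exons overlap those of Ctbp2 for Fgfr2, Gm43439 for Fgf2 and Tomm6os for Frs3. The other 23 tested members, Fgf11 and Il17rd among them, have no such overlap.

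Much of the spread in ligands and feedback genes lay between libraries of the same genotype. Wild-type replicate 3 was the highest of its group and double knockout replicate 3 the lowest of its group in 13 of 34 tested members (38.2%), beside 10.6% of all genes tested. This order was noticed after the values were seen. It held in 8 of the 11 feedback inhibitors and ETS factors (Spry1, Spry4, Spred1, Spred3, Dusp6, Il17rd, Etv1 and Etv4), in Fgf3, Fgf9, Fgf15 and Fgf17, and in the adaptor Frs3. It held in 0 of the 5 receptors and 0 of the 4 homologous factors.

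The size of these departures differed widely. Fgf17 in wild-type replicate 3 was 7.32 times the mean of the other wild-type libraries, Fgf15 was 2.38 times, Spry1 1.65 times, Etv4 1.51 times and Il17rd 1.39 times. In double knockout replicate 3, Fgf17 was 0.165 times the mean of the other double knockout libraries, Etv4 0.473 times, Etv5 0.548 times, Dusp6 0.69 times and Il17rd 0.721 times. Of the receptors, Fgfr1 and Fgfr3 were between 0.992 and 1.08 times in both, while Fgfr2 was 1.24 times and Fgfrl1 1.35 times in double knockout replicate 3, and Fgfrl1 1.17 times in wild-type replicate 3. Zic2, a midline transcription factor, had the same order, at 28.2, 23.3 and 42.4 CPM in wild type and 43.7, 54.3 and 21.3 CPM in the double knockout. So did the summed hypothalamic and diencephalic markers, at 71.32, 64.08 and 83.19 CPM and then 214.2, 204.4 and 181.3 CPM. That sum was also higher in every double knockout library than in any wild-type library. Of these markers 2 of the 6 tested were called higher (33.3%), and Rax was at or under 3 counts in every library. Barhl2, one of them, did not share the order, since it was highest in wild-type replicate 2. The part of the dissected region in these values was not tested.

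**Figure D4:**
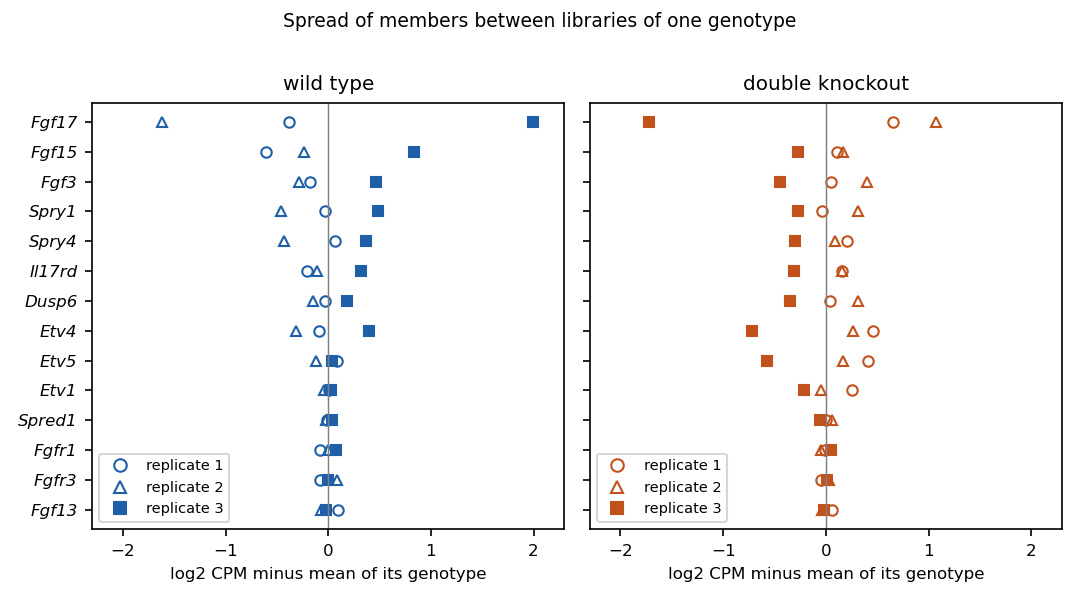
Log2 CPM of 14 members in each library minus the mean of its own genotype (x axis), for wild type (blue, left) and double knockout (orange, right), with replicate 3 filled. Fgf17, Fgf15, Spry1 and Il17rd lie to the right in wild-type replicate 3 and to the left in double knockout replicate 3, while Fgfr1, Fgfr3 and Fgf13 lie near 0 in all 6 libraries.

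Other genes of the pathway, taken from lists by function, are read against the 2.68% of all genes that were called. Of 6 co-receptors and extracellular binders tested, 1 fell and 0 rose (16.7%), and at an unadjusted p under 0.05 there were 1 higher and 2 lower. It was Flrt2, a membrane protein that binds FGF receptors and the guidance receptors of the Unc5 family. Flrt2 was at 176.8, 168.6 and 160.0 CPM in wild type and 82.9, 86.2 and 94.6 CPM in the double knockout, a log2 fold change of -0.94 (SE 0.063, edgeR adjusted p = 0.00014).

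Of 24 genes of heparan sulfate proteoglycans and their synthesis, 1 rose and 1 fell (8.33%). At an unadjusted p under 0.05 there were 3 higher and 4 lower. The genotypes did not overlap in 37.5% of the 24, with 5 higher and 4 lower, beside 19.5% of all genes. Gpc4, a glypican that carries heparan sulfate chains, rose from 73.4, 77.1 and 81 CPM to 118.2, 114.1 and 132.5 CPM, a log2 fold change of 0.66 (SE 0.0667, edgeR adjusted p = 0.00141). Hs6st2, which sulfates those chains, fell from 57.5, 50.2 and 48.5 CPM to 38.6, 39.6 and 39.2 CPM, a log2 fold change of -0.41 (edgeR adjusted p = 0.0203). The list's median was 0.01, beside -0.002 over all genes, and the remaining 22 genes were not called.

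The signal relay from Grb2 to the MAP kinases showed 1 call among 26 genes (3.85%), with a median of -0.03. At an unadjusted p under 0.05 there were 1 higher and 6 lower, beside 13.3% of all genes in either direction. The genotypes did not overlap in 42.3% of the 26, with 2 higher and 9 lower, beside 19.5% of all genes. Shb, an adaptor protein of receptor tyrosine kinases, fell from 67.2, 72 and 63.6 CPM to 40.8, 46 and 42.5 CPM, a log2 fold change of -0.65 (edgeR adjusted p = 0.00156). Among 16 other genes linked to MAP kinase signalling, not all of them induced by it, 3 fell and 0 rose (18.8%). At an unadjusted p under 0.05, 2 were higher. Myc, the growth regulator, fell from 27.1, 24.2 and 25.5 CPM to 13.7, 15.7 and 14.7 CPM (log2 fold change -0.80, edgeR adjusted p = 0.00142). Fosl2, of the Fos family, fell from 8.43, 6.18 and 6.48 CPM to 3.31, 3.24 and 3.85 CPM (-1.02, edgeR adjusted p = 0.00931). Phlda1 fell from 9.2, 7.97 and 8.11 CPM to 5.69, 6.23 and 5.81 CPM (-0.51, edgeR adjusted p = 0.0384), and a predicted transcript overlaps it on the opposite strand. Many signals other than FGF are known to induce these 3 genes.

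Patterning genes linked to FGF in the telencephalon had 3 that rose and 1 that fell among 13 tested (30.8%). Sp8, a zinc finger factor that acts with Fgf8 in rostral patterning and is also made by eminence cells, fell from 37.3, 40.2 and 42.4 CPM to 15.3, 13.4 and 7.78 CPM (log2 fold change -1.72, SE 0.211, edgeR adjusted p = 0.00362). Lhx2, a LIM homeodomain factor of progenitors, rose from 123.1 ± 16.2 to 189.1 ± 9.82 CPM (SD, n = 3 each, log2 fold change 0.62, edgeR adjusted p = 0.00931). Lhx2 read counts were 6175, 8161 and 8792 and then 11751, 10732 and 13874. Zic1, a zinc finger factor overlapped by Zic4 on the opposite strand, rose from 123.7, 135.1 and 190.1 CPM to 256.0, 269.5 and 228.7 CPM (0.75, edgeR adjusted p = 0.0346). Gli3, a repressor of Sonic hedgehog signalling, rose from 147.7, 165.1 and 173.3 CPM to 193.1, 209.1 and 201.4 CPM (0.31, edgeR adjusted p = 0.0463). Nr2f2 and Zic2 were not called, and double knockout replicate 3 was the lowest of its group in both.

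**Figure D5:**
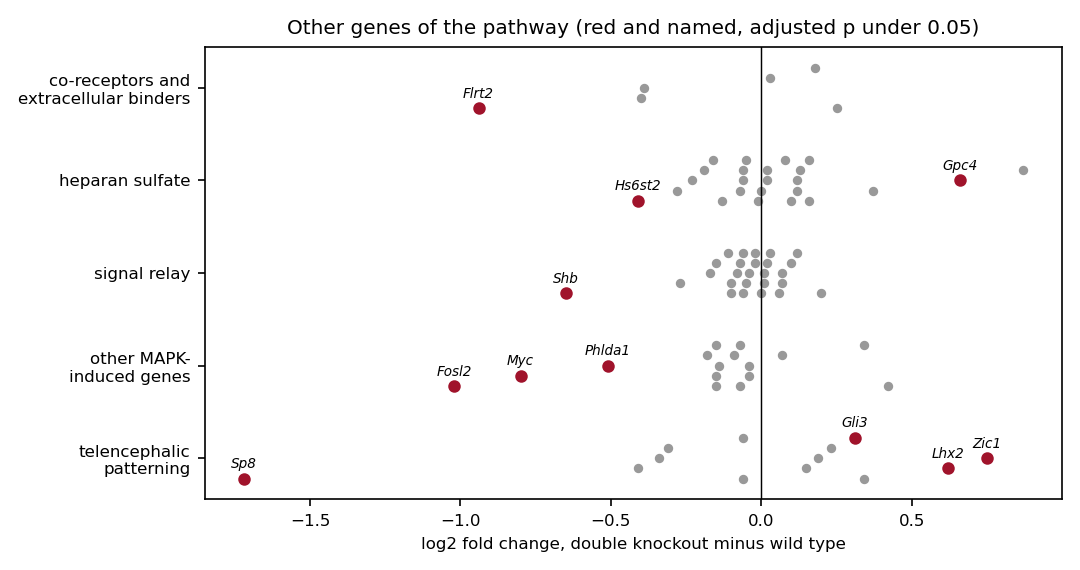
Log2 fold change (double knockout minus wild type, x axis) of each tested gene in 5 lists of other pathway genes, with genes called by edgeR in red and named, and vertical scatter within a list only to separate points. Calls run from Sp8 at -1.72 to Zic1 at 0.75, and most grey points lie near 0, with a median of -0.03 in the signal relay.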

How the data were processed

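RNA was measured in 6 libraries of ganglionic eminence. The authors deposited whole-number counts per gene, not normalised, in 1 table. Per the submitters' processing notes, featureCounts and GRCm39 were used; the aligner, annotation release and strand setting are not given in the sources used here. Libraries were made with a stranded kit that depletes ribosomal RNA, per the labels' protocols.

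Each library's group is that in its title. After edgeR's filterByExpr (minimum count 10, minimum total 15) and TMM normalisation, genes were tested with the quasi-likelihood test of version 4.0.16 in R 4.3.3, with Benjamini-Hochberg adjustment over all 23628 genes and a call at 0.05. CPM and SE derive from that fit. RPKM used GENCODE M21 exon lengths, which are not the authors' build. A floor of 3 counts is 0.0432 to 0.052 CPM. Alternatives included DESeq2 1.42.0 and limma 3.58.1.

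The members and lists were chosen with earlier results of these data known. Every member called or with a mean of at least 1 CPM is named with its values in each library, and other pathway genes where called. Spry3 was not analysed here. Zic2, Nr2f2, Ttr and the library order were added after values were seen.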

Additional observations from a re-analysis of the deposited data

How the results depend on the processing

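Member results were recomputed under 14 alternatives, 6 of which leave out a library. Fgf1, Fgf5, Fgf8, Fgf10, Fgf22 and Fgfr4 had 13, since they fail a filter at a mean of 1 CPM, and DESeq2 gave Fgf1 no adjusted p. Of 34 members, 28 kept their sign in every alternative run for them, and 28 were called in none. Members called higher, 0 as reported, became 2 with DESeq2, 2 with no filter, and 0 to 2 without single libraries. Members called lower, 1 as reported, became 2 with DESeq2, 2 with no filter, 0 with the Y-linked covariate, 0 at an adjusted p under 0.01, 0 with a required log2 change of 1 in size, and 0 to 1 without single libraries. Over all genes, calls higher (317) became 592 with DESeq2, 171 with the covariate, 126 at 0.01, 77 with the fold limit and 143 to 391 without single libraries. Calls lower (317) became 570, 187, 149 and 103 in that order, and 160 to 358 without single libraries. Total count scaling made 60.4% of calls higher, where the reported split is 50%, and moved the median of all genes to 0.027. Signs reversed in 6 members, none of them called. Fgf17 ranged from -0.31 to 1.83 without single libraries, and was -0.16 without wild-type replicate 1, -0.31 without wild-type replicate 2 and -0.31 without double knockout replicate 2. Fgf18 ranged from -0.45 to 0.41 without single libraries, and was 0.0037 with limma-voom and 0.41 without wild-type replicate 1. Spred3 ranged from -0.06 to 0.12 likewise, and was -0.003 with limma-voom, -0.05 without wild-type replicate 2, -0.06 without double knockout replicate 1 and -0.04 without double knockout replicate 2. Without double knockout replicate 2 Fgf7 was 0.02 (range -0.11 to 0.02) and Fgfr4 0.01 (-0.42 to 0.01), and Etv5 was 0.09 without double knockout replicate 3 (-0.37 to 0.09). The causes of these changes were not tested.

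The replicate numbers are shared between genotypes, but no label ties them to a litter. Libraries with the same number deviated from their groups with correlations of -0.0694, -0.00223 and 0.00182. Wild-type replicate 1 correlated best with double knockout replicate 2 (0.0953). Such correlations cannot decide whether libraries share a litter, since a shared litter need not leave a trace across all genes. With a replicate block 3 members were called lower, Fgf11, Fgf13 (edgeR adjusted p = 0.0462) and Fgf14 (0.0245). Over all genes that block gave 329 calls higher and 361 lower, where the fit without it gave 317 each. With 3 libraries per genotype and counts under 1 CPM, differences in the scarcest ligands were not detectable at this depth.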
